A study of Homo sapiens with 16 samples.

Results

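The early genes EGR1, EGR2, EGR3, NR4A1, NR4A2, NR4A3, IER2, IER3, IER5 and SRF were followed by RNA sequencing in Mia-PaCa-2 and PANC-1. Both are established human lines from pancreatic ductal adenocarcinoma. These 10 genes were taken by symbol from the 63677 gene identifiers that were counted. The set holds fast-responding regulators outside the AP-1 family. Its members were chosen by name with the measured expression changes of these lines under gemcitabine already known. The comparison of gemcitabine with control is therefore given as a description without a test.

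Each line was kept as control or exposed for 24 h to 40 nM gemcitabine, to 50 µM genistein, or to both, with 2 biological replicates per group, which gave 16 libraries. Gemcitabine is a deoxycytidine analogue that blocks DNA synthesis. Genistein is a soy isoflavone known as an inhibitor of tyrosine kinases. All groups grew in DMEM with 10% FBS, and genistein was dissolved in DMSO. The sources used here do not say whether the control dishes received DMSO. Both lines are single tumour isolates kept in culture.

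Immediate early genes are switched on from factors already present in the cell, within minutes of a growth factor or stress signal, and are usually silenced again soon after. SRF is the DNA-binding factor for many of them. It sits on CArG boxes, a run of A and T between CC and GG, together with ERK-driven ETS cofactors or actin-controlled MRTF cofactors. EGR1, EGR2 and EGR3 are zinc finger factors that bind GC-rich sites. NR4A1, NR4A2 and NR4A3 are orphan nuclear receptors whose activity follows their amount more than a ligand, and their promoters respond to CREB through cyclic AMP elements. IER3 is a survival regulator that prolongs ERK signalling, while IER2 and IER5 are related small nuclear proteins, of which IER5 binds phosphatase PP2A.

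The promoters of 4 of the genes are given as 200 bases upstream of the main transcript on its own strand (GRCh37), moved further upstream where an exon of another transcript intervened. For SRF (chr6:43138807-43139006, plus strand), EGR1 (chr5:137800968-137801167, plus strand) and EGR2 (chr10:64576134-64576333, minus strand) the capitals mark CArG boxes. For NR4A3 (chr9:102583937-102584136, plus strand) they mark TGACG, the core of the cyclic AMP element, on either strand. They are shown because CArG boxes stood in SRF and the EGR genes, and TGACG recurred in NR4A1, NR4A2 and NR4A3. TGACG also stands in the printed SRF, EGR1 and EGR2 sequences, where it is left in lower case.
SRF: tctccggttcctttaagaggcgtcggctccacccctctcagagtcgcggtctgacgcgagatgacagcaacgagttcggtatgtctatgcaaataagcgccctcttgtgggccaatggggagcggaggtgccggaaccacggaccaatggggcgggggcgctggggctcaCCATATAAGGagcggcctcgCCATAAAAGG
EGR1: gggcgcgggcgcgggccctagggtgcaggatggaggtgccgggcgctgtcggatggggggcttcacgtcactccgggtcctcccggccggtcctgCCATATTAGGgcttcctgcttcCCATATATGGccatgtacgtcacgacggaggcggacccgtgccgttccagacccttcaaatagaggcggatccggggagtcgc
EGR2: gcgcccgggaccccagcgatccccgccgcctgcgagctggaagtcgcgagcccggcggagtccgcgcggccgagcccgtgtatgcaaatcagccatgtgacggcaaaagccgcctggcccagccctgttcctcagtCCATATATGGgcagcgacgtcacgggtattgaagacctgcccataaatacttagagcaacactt
NR4A3: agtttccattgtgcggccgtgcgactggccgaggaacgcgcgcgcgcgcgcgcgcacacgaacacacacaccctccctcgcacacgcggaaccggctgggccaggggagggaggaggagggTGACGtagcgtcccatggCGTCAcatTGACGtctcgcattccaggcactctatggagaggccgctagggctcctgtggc

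In the 500 bases upstream of the start, a CArG box was found in 4 of the 10 genes and in 2.40% of 19873 promoters of the genome. EGR1 had 5 boxes, EGR2 and SRF had 2 each and EGR3 had 1. TGACG stood in 8 of the 10 and in 36.4% of all promoters. Its palindrome TGACGTCA, which contains TGACG, stood in NR4A2 alone and in 2.89% of all. The EGR element GCGNGGGCG was present in EGR1, NR4A1, NR4A2 and SRF and in 15.4% of all promoters. The ETS element CCGGAA was present in 7 of the 10 and in 25.9% of all, and the NR4A element AAAGGTCA in 0 of the 10 and in 1.86% of all. Both strands were searched. IER3 held none of these letters in its window, and IER5 held only the ETS element. A match is a description of the letters and not a bound site.

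**Figure D1:**
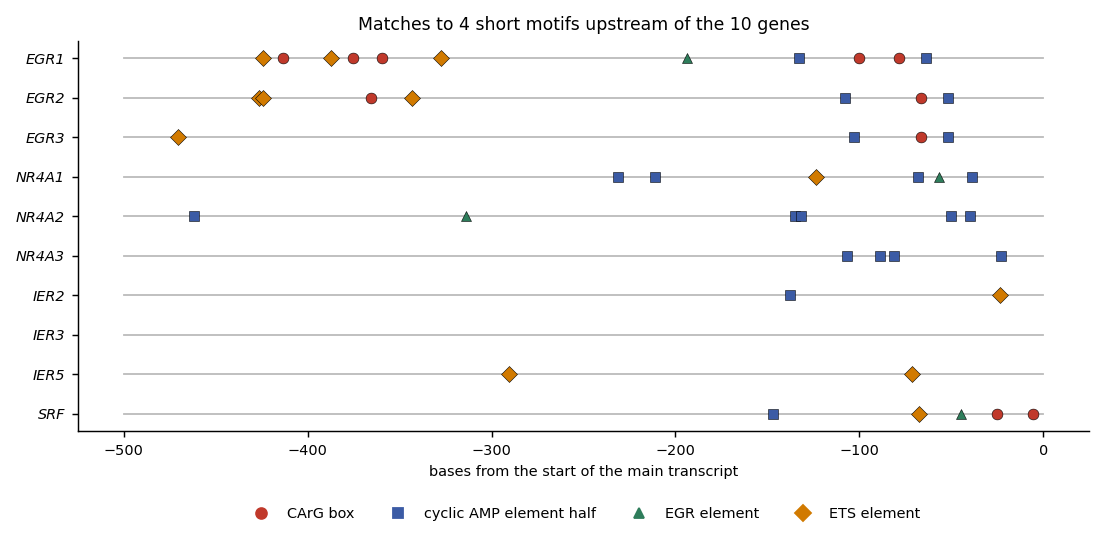
Each row is 1 of the 10 genes and the horizontal axis gives bases upstream of the start of its main transcript, with symbols at matches to the CArG box, the cyclic AMP element core, the EGR element and the ETS element on either strand. CArG boxes lie only in the rows of EGR1, EGR2, EGR3 and SRF, and the row of IER3 is empty.

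Between 12943482 and 31991860 reads were counted per library. Replicates differed by more than counting noise in every group, with a chi-square per degree of freedom between 2.70 and 32.0. The PANC-1 control pair (32.0) and the PANC-1 pair with both drugs (19.7) differed most. All 3 acinar and 2 islet markers stayed under 1 FPKM in both lines. So did the fibroblast markers DCN and LUM, but PDGFRB stood at 2.39 to 3.51 FPKM in PANC-1. The endothelial marker PECAM1 was listed at 0, while CDH5 in Mia-PaCa-2 stood at 1.47 FPKM in the control and 0.409 with both drugs. Of the mesenchymal genes, VIM was high and ZEB1 present in both lines, and CDH2 was at or near 0 in Mia-PaCa-2 and 8.80 to 12.7 FPKM in PANC-1. The epithelial gene EPCAM was listed at 0 and CDH1 near 0 in Mia-PaCa-2, against 7.74 to 11.1 FPKM of EPCAM in PANC-1, while KRT8 was high in both. PTPRC, the common leukocyte marker, was at or near 0 throughout, while CD68, a macrophage marker also found in lysosomes of other cells, ran from 17 FPKM in the control to 35.2 in Mia-PaCa-2 and from 119 in the control to 217 in PANC-1. A sum of 4 heat shock genes (HSPA1A, HSPA1B, DNAJB1 and HSPH1) that respond to handling was highest in the controls, at 547 FPKM in Mia-PaCa-2 (468 to 502 with drug) and 434 FPKM in PANC-1 (315 to 382 with drug). Single genes differed, with HSPA1A and HSPA1B in Mia-PaCa-2 highest with both drugs (78.3 and 86.4 FPKM, against 59.5 and 69.7 in the control) and HSPH1 in PANC-1 highest with gemcitabine (139 against 103.4). The part of CD68 and of the heat shock genes in the results below was not tested. In bulk RNA, a change in the share of cells that express a gene and a change in the RNA per cell cannot be told apart.

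Genistein alone raised 4 of the 10 genes in Mia-PaCa-2 and none in PANC-1. Genistein on top of gemcitabine raised NR4A1 and IER5 in Mia-PaCa-2 and none of the genes in PANC-1. Gemcitabine on top of genistein raised EGR3, NR4A1 and IER5 in Mia-PaCa-2 and EGR1, NR4A1 and IER2 in PANC-1. SRF itself passed no test. A gene was called at an adjusted p of at most 0.05 (limma-voom, Benjamini-Hochberg over all genes tested). The log2 fold change had to be at least 0.4 either way. A mean above 1 FPKM (fragments per kilobase of transcript, scaled to library size) in the treated group was also required. A gene that fell to 1 FPKM or less could therefore not be called, whereas a scarce gene that rose could. NR4A1 with genistein in Mia-PaCa-2 rose from a control mean of 0.57 FPKM. For gemcitabine added to genistein, the genistein means were 0.37 FPKM for EGR1 and 0.965 for NR4A1 in PANC-1, and 0.219 for EGR3 in Mia-PaCa-2. These calls met the FPKM criterion only through the higher group.

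Read against all genes, the share of the members called was 4 of 10 for genistein in Mia-PaCa-2, where 8.31% of 16064 genes were called (4.18% higher). It was 2 of 10 for genistein added to gemcitabine (background 5.88%, with 4.05% higher) and 3 of 10 for gemcitabine added to genistein (31.5%, with 16.6% higher), so the last count lies near the background. In PANC-1, 9 of the 10 genes could be tested, since EGR3 had too few reads. There, 0 were called for genistein alone (background 0.0591% of 16909 genes) and 0 for genistein added to gemcitabine (0.0177%). At an unadjusted p under 0.05 these had 1 and 2 members, with no share of all genes given for that threshold. By the call rule, 3 of 9 were called for gemcitabine added to genistein (8.18%, with 3.87% higher). Over all genes that comparison had 1383 calls, against 27 without PANC-1 genistein replicate 1 and 29 without replicate 2. By the adjusted p alone, without the fold and FPKM criteria, the counts for gemcitabine added to genistein were 6 of 10 in Mia-PaCa-2 (background 41.2%) and 5 of 9 in PANC-1 (8.84%). The described comparison of gemcitabine with control had 4 of 10 called in Mia-PaCa-2 (29.6%) and 2 of 9 in PANC-1 (7.52%), from which nothing is read. Genistein against control shares its control libraries with that comparison, and genistein added to gemcitabine shares its gemcitabine libraries. Gemcitabine added to genistein measures the response to the same drug again. All of these shares are therefore descriptions and no test of the genes as a set.

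**Figure D2:**
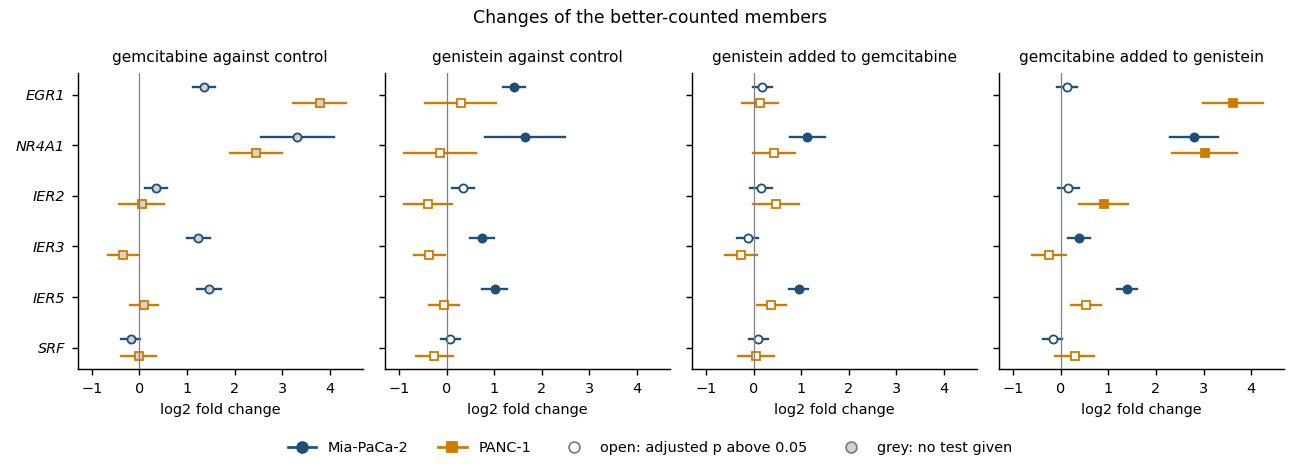
Points are log2 fold changes of 6 genes with 95% confidence intervals in Mia-PaCa-2 (circles) and PANC-1 (squares), for 4 comparisons, with filled symbols at an adjusted p of at most 0.05 and grey symbols where no test is given. In Mia-PaCa-2, EGR1 lies to the right of 0 for either drug alone and its interval includes 0 when the other drug is present, while IER5 lies to the right of 0 in all 4 panels.

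EGR1 (ENSG00000120738, chr5:137801168-137804992, GRCh37, plus strand) ran from 0.261 to 25.4 FPKM over the 16 libraries. In Mia-PaCa-2 its FPKM was 8.22 and 7.78 in the controls, 23.9 and 21.1 with gemcitabine, 21.5 and 20.8 with genistein and 24.3 and 25.4 with both. All 6 treated libraries stood well above the controls, and the 3 treated groups lay close together. In PANC-1 the FPKM was 0.283 and 0.288 in the controls, 4.58 and 4.30 with gemcitabine, 0.261 and 0.480 with genistein and 4.91 and 5.09 with both. Here the libraries split by gemcitabine alone, and genistein overlapped with control. The control values rest on 22 and 34 reads. The whole of the EGR1 signal came from 1 transcript, ENST00000239938.

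Genistein raised EGR1 in Mia-PaCa-2 by 1.42 on the log2 scale (SE 0.11, adjusted p = 1.1e-04, limma-voom). In PANC-1 the same comparison gave 0.30 (SE 0.32, 95% confidence interval -0.45 to 1.05, adjusted p = 0.67). The difference between these responses was -1.17 (SE 0.33, adjusted p = 0.26, limma-voom), so the lines were not shown to differ in their EGR1 response to genistein.

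Once Mia-PaCa-2 had received 1 of the drugs, the other moved EGR1 little. Genistein added to gemcitabine gave 0.18 (95% confidence interval -0.02 to 0.38, adjusted p = 0.27), and gemcitabine added to genistein gave 0.13 (-0.08 to 0.33, adjusted p = 0.30, both limma-voom). In PANC-1, gemcitabine added to genistein raised EGR1 by 3.62 (SE 0.28, adjusted p = 0.0013, limma-voom), and genistein added to gemcitabine gave 0.13 (95% confidence interval -0.25 to 0.52, adjusted p = 0.76). For comparison, gemcitabine against control stood 1.36 (SE 0.11) higher in Mia-PaCa-2 and 3.79 (SE 0.24) higher in PANC-1.

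The interaction term asks whether the drugs together gave the sum of their separate log2 changes, and for EGR1 in Mia-PaCa-2 it was -1.24 (SE 0.14, adjusted p = 0.00987, limma-voom). It contains the gemcitabine comparison that was known when the genes were chosen. Only 4 of 16064 genes (0.0249%) passed this test, among them CYR61 at -1.0 and the noncoding SNHG3 at 0.985. The call was lost on FPKM scales (adjusted p = 0.385 and 0.388) and without Mia-PaCa-2 control replicate 1 (-1.29, 0.15) or 2 (-1.20, 0.227) or gemcitabine replicate 1 (-1.16, 0.108) or 2 (-1.31, 0.108). In PANC-1, 0 of 16909 genes passed the interaction test (limma-voom), with 2 members at an unadjusted p under 0.05. No share of all genes is given for that unadjusted threshold.

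**Figure D3:**
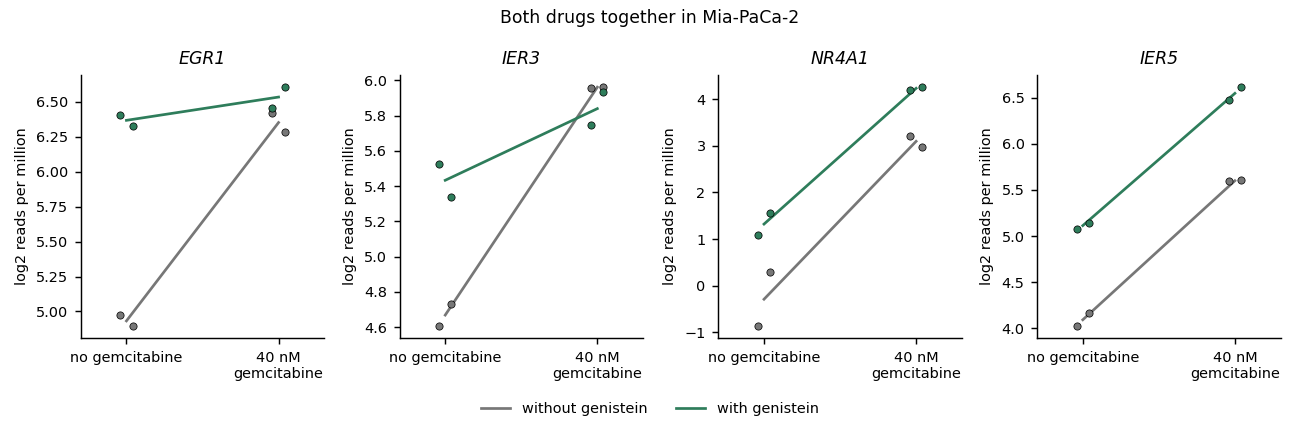
Points are log2 CPM (reads of a gene scaled to the size of the library) of 4 genes in the 8 Mia-PaCa-2 libraries, without (grey) and with (green) genistein, and lines join the group means from no gemcitabine to 40 nM gemcitabine. The lines converge for EGR1, cross for IER3, draw somewhat nearer for NR4A1 and run side by side for IER5.

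EGR2 (ENSG00000122877, chr10:64571756-64578927, minus strand) never exceeded 0.394 FPKM, and its values are read counts of a scarce transcript. Mia-PaCa-2 had 4 and 1 reads in the controls, 15 and 12 with gemcitabine, 7 and 11 with genistein and 16 and 4 with both. PANC-1 had 0 and 1 in the controls, 12 and 5 with gemcitabine, 2 and 0 with genistein and 13 and 21 with both. The PANC-1 libraries with gemcitabine, alone or combined, all lay above those without it. Over both replicates, gemcitabine against control in PANC-1 was 17 reads against 1, a depth-scaled ratio of 22.3 that rests on 1 control read. The fitted log2 change was 3.63 (SE 0.88) beside 2.18 (SE 0.72) in Mia-PaCa-2, and both are descriptions. Gemcitabine added to genistein gave 3.57 (SE 0.83, adjusted p = 0.0393, limma-voom), a pass that was lost when any 1 of the 4 libraries compared was left out.

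EGR3 (ENSG00000179388, on chromosome 8, minus strand) separated the drugs in Mia-PaCa-2. It had 12 and 4 reads in the controls, 45 and 56 with gemcitabine, 8 and 17 with genistein and 51 and 65 with both, and did not exceed 1.07 FPKM. The 4 libraries with gemcitabine lay above the 4 without it, and genistein overlapped with control. The addition of gemcitabine to genistein raised EGR3 by 2.32 (SE 0.35, adjusted p = 0.0002, limma-voom), beside 2.51 (SE 0.41) for gemcitabine against control. It met the FPKM criterion only through the group with both drugs, at a mean of 1.01 FPKM with 1 library at 0.954, against 0.219 with genistein. Genistein alone gave 0.54 (SE 0.48, adjusted p = 0.506), and genistein added to gemcitabine gave 0.35 (SE 0.25, adjusted p = 0.43). PANC-1 had at most 6 reads of EGR3 in any library, with 9 reads for both drugs against 0 for genistein. The exact 95% interval of the depth-scaled ratio began at 1.55 (counting error only), and 3 reads assumed in place of 0 would give a ratio of 2.35.

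**Figure D4:**
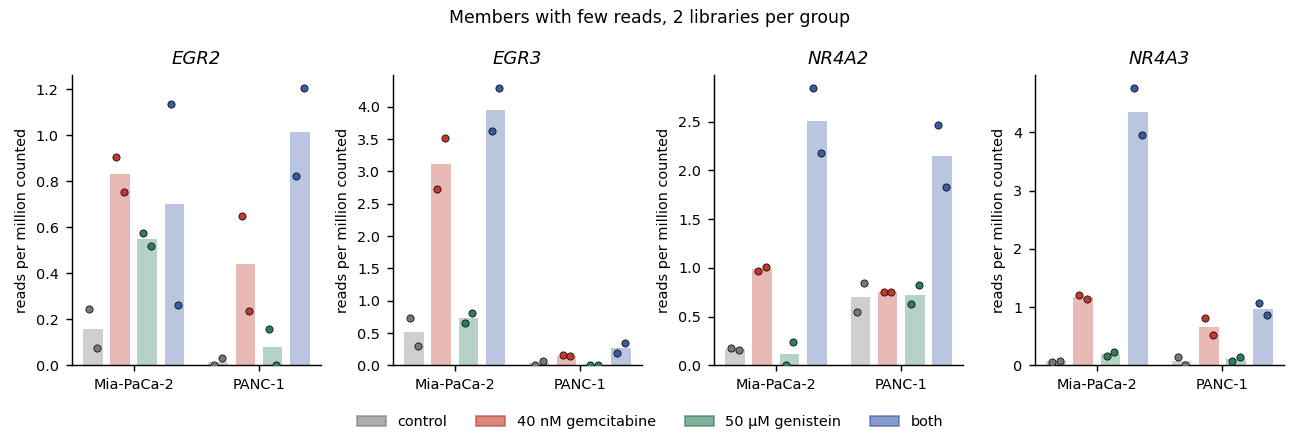
Bars are group means and points single libraries, in CPM (reads scaled to library size), for the 4 genes with few reads, in Mia-PaCa-2 and PANC-1 under control, gemcitabine, genistein and both. EGR3 follows gemcitabine in Mia-PaCa-2, and NR4A2 and NR4A3 are highest there with both drugs.

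NR4A1 (ENSG00000123358, chr12:52416616-52453291, plus strand), also known as NUR77, rose from a low level in both lines. In Mia-PaCa-2 the FPKM was 0.182 and 0.958 in the controls, 3.78 and 3.84 with gemcitabine, 2.15 and 1.67 with genistein and 7.36 and 11.2 with both. In PANC-1 the control FPKM was 0.629 and 0.581, with 3.21 and 4.31 under gemcitabine, 1.16 and 0.775 under genistein and 6.26 and 7.75 under both. The libraries with both drugs lay above all others in each line.

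FPKM of NR4A1 depends on how reads are shared among its 22 listed isoforms. For every gene the tests used reads, and those of NR4A1 are given here as CPM. In Mia-PaCa-2 these were 0.547 and 1.23 CPM in the controls, 9.31 and 7.86 with gemcitabine, 2.14 and 2.93 with genistein and 18.3 and 19.3 with both. PANC-1 had 1.55 and 1.16 in the controls, 7.23 and 6.91 with gemcitabine, 1.33 and 0.978 with genistein and 8.41 and 11.0 with both. On this scale the genistein libraries of PANC-1 overlapped with control, whereas their FPKM did not. An antisense RNA, NR4A1AS, covers 10.3% of the exon length of NR4A1, and whether counting used strand is not given in the sources used here.

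Gemcitabine added to genistein raised NR4A1 by 2.80 (SE 0.23, adjusted p = 3.6e-06) in Mia-PaCa-2 and by 3.02 (SE 0.29, adjusted p = 0.0026, limma-voom) in PANC-1. The PANC-1 call was lost without genistein replicate 1 (3.26, adjusted p = 0.0578) or 2 (2.82, adjusted p = 0.0741). These stand beside 3.32 (SE 0.35) and 2.45 (SE 0.24) for gemcitabine against control.

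Genistein alone raised NR4A1 in Mia-PaCa-2 by 1.65 (SE 0.38, adjusted p = 0.0187, limma-voom), a call that turned on single libraries. Without control replicate 1 the value was 1.04 (adjusted p = 0.245), without control replicate 2 it was 2.17 (0.0566), and without genistein replicate 2 it was 1.37 (0.0875). PANC-1 gave -0.15 (95% confidence interval -0.91 to 0.62, adjusted p = 0.85), a value whose sign changed with the setting. Added to gemcitabine, genistein raised NR4A1 in Mia-PaCa-2 by 1.13 (SE 0.17, adjusted p = 0.0027), lost without gemcitabine replicate 2 (1.01, adjusted p = 0.0604). In PANC-1 it gave 0.43 (SE 0.19, adjusted p = 0.38, limma-voom). On the FPKM scales both Mia-PaCa-2 calls were lost, with an adjusted p of 0.114 on either scale for genistein alone (limma). For genistein added to gemcitabine it was 0.117 at log2(FPKM + 1) and 0.308 at log2(FPKM + 0.1) (limma).

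NR4A3 (ENSG00000119508, chr9:102584137-102629173, plus strand) did not exceed 0.947 FPKM and so could not be called, yet its reads with gemcitabine stood far above those without it. Mia-PaCa-2 had 1 and 1 reads in the controls, 20 and 18 with gemcitabine, 2 and 5 with genistein and 67 and 60 with both. No libraries overlapped between these groups, but genistein and control differed by few reads. They had 7 reads against 2 (depth-scaled ratio 3.10, 95% interval 0.590 to 30.6, counting error only). Genistein added to gemcitabine gave 127 reads against 38 (depth-scaled ratio 3.71, 95% interval 2.56 to 5.47, counting error only), a log2 change of 1.85 (SE 0.27, adjusted p = 0.0021, limma-voom) that missed the threshold without gemcitabine replicate 1 (adjusted p = 0.0537) or 2 (0.0517). On top of genistein, gemcitabine raised it by 4.16 (SE 0.42, adjusted p = 1.5e-05, limma-voom), beside 3.51 (SE 0.57) for gemcitabine against control. PANC-1 had 3 and 0 reads in the controls, 15 and 11 with gemcitabine, 1 and 2 with genistein and 17 and 15 with both. There the libraries split by gemcitabine, and gemcitabine added to genistein gave 2.71 (SE 0.82, adjusted p = 0.0795, limma-voom), which passed in 5 of 15 alternatives, among them the GC correction (adjusted p = 0.0202) and all 16 libraries in one model (0.0143). Gemcitabine against control stood at 3.77 (SE 0.87) on control reads of 3 and 0, and at 1.997 without PANC-1 control replicate 2 and 5.41 without replicate 1.

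NR4A2 (ENSG00000153234, chr2:157180949-157198860, minus strand), or NURR1, is the gene whose promoter carries the cyclic AMP palindrome. Mia-PaCa-2 had 3 and 2 reads in the controls, 16 and 16 with gemcitabine, 0 and 5 with genistein and 40 and 33 with both. In PANC-1 the controls had 11 and 27 reads, against 14 and 16 with gemcitabine, 8 and 11 with genistein and 39 and 32 with both. Both lines had their highest NR4A2 with the drugs combined, while gemcitabine alone lay within the range of the controls in PANC-1. The combination held 73 reads against 32 with gemcitabine in Mia-PaCa-2 (depth-scaled ratio 2.53, 95% interval 1.65 to 3.96) and 71 against 30 in PANC-1 (2.82, 1.82 to 4.48), intervals that cover counting error only. Over replicates neither passed, with 1.3 (SE 0.38, adjusted p = 0.0561) in Mia-PaCa-2 and 1.43 (SE 0.33, adjusted p = 0.143, limma-voom) in PANC-1. Both passed with the GC correction (0.0227 and 0.0217), and that of Mia-PaCa-2 also with edgeR (0.0464) and with only the libraries compared (0.02). The addition of gemcitabine to genistein raised NR4A2 by 4.40 (SE 0.66, adjusted p = 0.0002) in Mia-PaCa-2 and by 1.48 (SE 0.36, adjusted p = 0.0448, limma-voom) in PANC-1, the latter lost when any 1 of the 4 libraries compared was left out. Gemcitabine against control stood at 2.27 (SE 0.62) in Mia-PaCa-2.

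**Figure D5:**
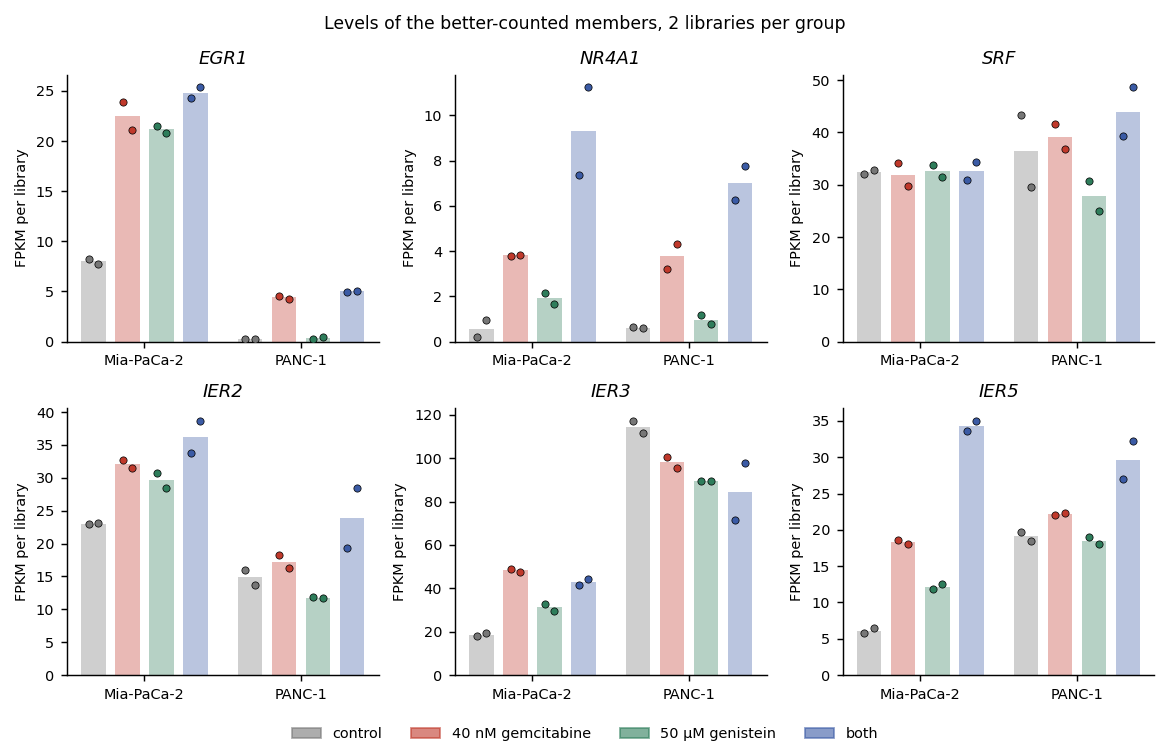
Bars are group means and points the 2 libraries of each group, in FPKM on axes that start at 0, for the 6 genes with more reads. EGR1 is higher and IER3 lower in Mia-PaCa-2 than in PANC-1 in every group, and the combination gives the highest NR4A1 and IER5 in each line.

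IER5 (ENSG00000162783, chr1:181057836-181062036, plus strand) rose with genistein in Mia-PaCa-2, both alone and on top of gemcitabine. Its FPKM there was 5.84 and 6.42 in the controls, 18.5 and 18.1 with gemcitabine, 11.8 and 12.5 with genistein and 33.6 and 35 with both. The 4 groups did not overlap. In PANC-1 it was 19.8 and 18.5 in the controls, 22.0 and 22.4 with gemcitabine, 19.0 and 18.0 with genistein and 27.0 and 32.3 with both, with only control and genistein overlapping on this scale. In CPM the PANC-1 libraries with gemcitabine (53.7 and 54.1) lay within the range of the controls (56.2 and 48.3).

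Genistein raised IER5 in Mia-PaCa-2 by 1.01 (SE 0.12, adjusted p = 0.0007) from control and by 0.94 (SE 0.095, adjusted p = 0.0003, limma-voom) on top of gemcitabine. On top of genistein, gemcitabine raised it by 1.38 (SE 0.10, adjusted p = 1.4e-06), beside 1.46 (SE 0.12) against control. The interaction was -0.072 (95% confidence interval -0.40 to 0.26, adjusted p = 0.93, limma-voom). PANC-1 gave -0.052 (-0.36 to 0.26, adjusted p = 0.87) for genistein, 0.37 (SE 0.13, adjusted p = 0.28) for genistein added to gemcitabine and 0.53 (SE 0.14, adjusted p = 0.0527, limma-voom) for gemcitabine added to genistein, the last of which passed in 9 of 16 alternatives. Gemcitabine against control stood at 0.10 (SE 0.13) there.

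IER3 (ENSG00000137331, chr6:30710976-30712325, minus strand), also called IEX-1, reached 117 FPKM and was the most abundant of the genes per length in PANC-1. In the Mia-PaCa-2 controls its mean (18.7 FPKM) lay below those of SRF (32.4) and IER2 (23.0). Mia-PaCa-2 had 17.9 and 19.4 FPKM in the controls, 48.9 and 47.7 with gemcitabine, 33.0 and 29.5 with genistein and 41.5 and 44.5 with both. PANC-1 had 117.3 and 111.5 FPKM in the controls, 100.6 and 95.5 with gemcitabine, 89.5 and 89.6 with genistein and 71.6 and 97.6 with both. All treated libraries lay above the controls in Mia-PaCa-2 and below them in PANC-1, and the spread of the PANC-1 pair with both drugs was the widest. Antisense RNAs cover 32.6% and 6.30% of the exon length of IER3.

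Genistein raised IER3 in Mia-PaCa-2 by 0.74 (SE 0.12, adjusted p = 0.0029, limma-voom), lost without control replicate 1 (0.68, adjusted p = 0.0663). Added to gemcitabine, it gave -0.13 (95% confidence interval -0.35 to 0.09, adjusted p = 0.49). When added to genistein, gemcitabine gave 0.37 (SE 0.11, adjusted p = 0.0133, limma-voom), under the fold threshold and lost without genistein replicate 2 (0.278, adjusted p = 0.177), beside 1.24 (SE 0.11) against control. The interaction of -0.87 (95% confidence interval -1.20 to -0.53, adjusted p = 0.113, limma-voom) had the sign of that of EGR1 but passed only under other settings, such as DESeq2 (0.0018). In PANC-1, genistein gave -0.36 (SE 0.14, adjusted p = 0.23, limma-voom), beside -0.34 (SE 0.14) for gemcitabine against control.

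IER2 (ENSG00000160888, chr19:13261225-13265725, plus strand) moved less. Its FPKM in Mia-PaCa-2 was 23.0 and 23.1 in the controls, 32.8 and 31.5 with gemcitabine, 30.8 and 28.4 with genistein and 33.8 and 38.7 with both. In PANC-1 it was 16 and 13.8 in the controls, 18.2 and 16.2 with gemcitabine, 11.9 and 11.7 with genistein and 19.4 and 28.4 with both. Each treated library of Mia-PaCa-2 exceeded the controls, with 0.34 (SE 0.11, adjusted p = 0.0577, limma-voom) for genistein and 0.34 (SE 0.11) for gemcitabine, the latter near 0 with a correction for GC content. The genistein value passed the adjusted p in 5 of 16 alternatives, among them DESeq2 (0.0422) and that correction (0.0184, limma-voom). In PANC-1, gemcitabine added to genistein raised IER2 by 0.90 (SE 0.22, adjusted p = 0.0475, limma-voom). That call was lost without replicate 2 of both drugs (0.59, adjusted p = 0.151) and without genistein replicate 1 (0.228) or 2 (0.271). Antisense RNAs cover 21.5% and 30.7% of the exon length of IER2.

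SRF (ENSG00000112658, chr6:43139007-43149244, plus strand) passed no test of a drug in either line. Mia-PaCa-2 had 32.0 and 32.8 FPKM in the controls, 34.1 and 29.7 with gemcitabine, 33.8 and 31.4 with genistein and 31.0 and 34.3 with both. PANC-1 had 43.3 and 29.7 in the controls, 41.6 and 36.8 with gemcitabine, 30.6 and 25.0 with genistein and 39.4 and 48.6 with both. The Mia-PaCa-2 groups overlapped throughout. Genistein gave 0.079 (SE 0.091, adjusted p = 0.62), genistein added to gemcitabine 0.092 (SE 0.093, adjusted p = 0.59) and gemcitabine added to genistein -0.17 (SE 0.092, adjusted p = 0.15, limma-voom), although with a correction for GC content the last was -0.47 and passed. Gemcitabine against control stood at -0.18 (SE 0.092), and at -0.498 with that correction.

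The untreated lines differed in 4 of the 10 genes, with 2 higher and 2 lower in PANC-1, against 52.3% of 17863 genes called (27.9% higher and 24.3% lower). EGR1 was lower in PANC-1 by a log2 change of -4.80 (SE 0.22, adjusted p = 9.0e-10) and IER2 by -0.69 (SE 0.18, adjusted p = 0.0045, limma-voom). The IER2 call was lost without PANC-1 control replicate 2 (-0.46, adjusted p = 0.0733). IER3 was higher by 2.58 (SE 0.16, adjusted p = 1.1e-08) and IER5 by 1.60 (SE 0.14, adjusted p = 2.6e-07, limma-voom). EGR3 passed the adjusted p at -3.51 (SE 0.64, adjusted p = 0.0003) on few reads, as did NR4A2 at 1.84 (SE 0.56, adjusted p = 0.0116, limma-voom), which was lost without either Mia-PaCa-2 control or PANC-1 control replicate 2. NR4A1 at 0.67 (95% confidence interval -0.17 to 1.52, adjusted p = 0.149) and SRF at 0.083 (-0.24 to 0.40, adjusted p = 0.64, limma-voom) did not pass. With the GC correction SRF was -0.254 and passed (adjusted p = 0.0055), and without PANC-1 control replicate 2 it was 0.35 and passed in the other direction (adjusted p = 0.045, limma-voom). EGR2 stood at -2.40 (SE 1.03, adjusted p = 0.0567, limma-voom).

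The response to gemcitabine differed between the lines for 3 of the 10 genes, where 15.3% of 17863 genes passed, and these tests contain the comparison known when the genes were chosen. EGR1 responded more in PANC-1, by 2.33 (SE 0.25, adjusted p = 0.0002, limma-voom). IER3 and IER5 responded more in Mia-PaCa-2, with PANC-1 minus Mia-PaCa-2 at -1.68 (SE 0.21, adjusted p = 0.0004) and -1.45 (SE 0.18, adjusted p = 0.0004, limma-voom). Each of these responded more in the line where its control level was lower, and the same control libraries enter both values. NR4A1 gave -0.95 (SE 0.44, adjusted p = 0.156) and NR4A2 -2.22 (SE 0.71, adjusted p = 0.0511, limma-voom). For genistein, 0 of the 10 genes and 6 of 17863 (0.0336%) differed between the lines. At an unadjusted p under 0.05 there were 5 members, a count without a background, since 0.0336% is the share by the adjusted p. The values nearest to passing were -1.12 (SE 0.19, adjusted p = 0.0643) for IER5 and -1.16 (SE 0.22, adjusted p = 0.106, limma-voom) for IER3, and both passed with edgeR (0.0246 and 0.0498). NR4A1 gave -1.82 (SE 0.54, adjusted p = 0.27, limma-voom).

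A list of 30 other early response genes, with the AP-1 genes FOS and JUN among them, was counted in the same comparisons. Genistein alone had 12 higher and 0 lower in Mia-PaCa-2 (8.31% of all genes called), where the median log2 change was 0.41 beside -0.0039 over all genes, with FOS at 1.37 (adjusted p = 0.004) and CSRNP1 at 1.21 (adjusted p = 0.0018, limma-voom). In PANC-1 (0.0591% of all genes called) it had 1 higher, ATF3 at 1.52 (adjusted p = 0.04, limma-voom), and 0 lower. Genistein added to gemcitabine had 8 higher and 1 lower in Mia-PaCa-2 (5.88% of all genes called), led by ATF3 at 1.16 and DUSP5 at 0.83. It had 0 higher and 1 lower in PANC-1 (0.0177%), KLF6 at -1.19 (adjusted p = 0.017, limma-voom). Gemcitabine added to genistein had 16 higher and 5 lower in Mia-PaCa-2 (31.5%), with FOSB at 2.93, and 16 higher and 0 lower in PANC-1 (8.18%), with FOS at 3.76.

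Among 25 kinases and cofactors upstream of SRF and CREB, genistein in Mia-PaCa-2 (8.31% of all genes called) had 2 higher and 2 lower. Higher were the kinase RPS6KA2 at 0.89 and the CREB relative CREM at 0.54, and RPS6KA4 at -0.54 was among the lower. PANC-1 had 0 of 25 for genistein (0.0591%). Gemcitabine added to genistein had 3 higher and 10 lower in Mia-PaCa-2 (31.5% of all genes called), where the median log2 change was -0.27 beside -0.011 over all genes. In PANC-1 (8.18%) it had 1 higher, CREM at 0.91, and 1 lower, MKL2 at -0.68. Partners and corepressors of the members had 0 of 9 called for genistein in either line (8.31% of all genes in Mia-PaCa-2 and 0.0591% in PANC-1). For gemcitabine added to genistein in Mia-PaCa-2 they had 4 of 9 lower (31.5% of all genes called). Of the cytoskeletal genes that SRF is known to drive, genistein had 1 of 15 higher in Mia-PaCa-2 (8.31%), ACTG1 at 0.63, and 0 of 16 in PANC-1 (0.0591%). Gemcitabine added to genistein had 2 higher and 4 lower of 15 in Mia-PaCa-2 (31.5%) and 1 higher and 5 lower of 16 in PANC-1 (8.18%).

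Genes with the most similar pattern were ranked by the root mean square difference of log2 CPM over 16 libraries, each centred on the mean of its line. Among 15095 genes the nearest to EGR1 were FOS (0.554), MAFF (0.558) and DUSP8 (0.591), where the own spread of EGR1 was 1.36. FOSB was nearest to NR4A1 (0.213, own spread 1.51), and CXCR4 and FOSB were nearest to NR4A3 (0.455 and 0.486). IER5 lay nearest to CCDC64 (0.138), PAOX (0.139) and CGN (0.152), with an own spread of 0.645. Within the set, NR4A1 and NR4A3 were close (0.457, own spreads 1.51 and 1.52), while EGR1 and NR4A1 were 0.956 apart. IER2 and SRF were 0.237 apart, but both moved little (own spreads 0.304 and 0.158), and the difference exceeds the own spread of SRF. These values are descriptions, since the libraries of a line share conditions. On log2(FPKM + 1), 1 of the 3 nearest genes was shared for EGR1 (MAFF) and for IER5 (PAOX), and 0 of 3 for NR4A1 and NR4A3.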

How the data were processed

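RNA from 16 libraries was poly-A selected and sequenced as single reads. The authors mapped reads to GRCh37 with TopHat 2.0.4, removed reads with several alignments with Picard 1.29 and deposited counts per gene from HTSeq 0.6.1, which are whole numbers without normalization. The authors also deposited FPKM per gene and per isoform from Cufflinks 2.1.1, which are relative to the length of the transcript and the size of the library. The annotation release and the strand setting of counting are not given in the sources used here.

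Counts were scaled with TMM (edgeR 4.0.16), filtered with filterByExpr and entered into limma-voom of limma 3.58.1 under R 4.3.3, with p adjusted by Benjamini-Hochberg over all genes. The 8 libraries of a line shared a model, which tested 16064 genes in Mia-PaCa-2 and 16909 in PANC-1. All 16 libraries were fitted together, over 17863 genes, for differences between lines. Calls needed 3 criteria, an adjusted p no higher than 0.05, a log2 fold change of 0.4 or more in size and over 1 FPKM on average in treated cells (for the untreated comparison, in 1 of the lines). Interactions and differences between lines were judged by the adjusted p alone. With 2 replicates per group, the spread of 1 gene is poorly determined, and limma shares it across genes. Counts of scarce genes were also compared as ratios with exact 95% intervals. The genes named were the members, up to 4 genes with the largest called change of each list, and the 3 genes most like each member. Promoters were read from GRCh37 sequence. The members and lists were chosen with earlier results of these data known. Alternatives were edgeR's quasi-likelihood test, DESeq2 1.42.0, other scalings and filters, a replicate block, a GC correction (loess, span 0.3), limma on log2(FPKM + 1) or log2(FPKM + 0.1), and each replicate left out. Scripts were tested on simulated data. Some genes and sequences that these rules would name are not reported here.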

Additional observations from a re-analysis of the deposited data

Results flagged for a closer look

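For 3 of the 10 genes the response to gemcitabine differed between the lines by a test of the difference itself (limma-voom over 17863 genes, of which 15.3% passed). The log2 response of PANC-1 minus that of Mia-PaCa-2 was 2.33 for EGR1, -1.68 for IER3 and -1.45 for IER5. EGR1 had a mean of 8.0 FPKM in the Mia-PaCa-2 controls and 0.285 FPKM in the PANC-1 controls. IER3 had 18.7 and 114.4 FPKM and IER5 had 6.13 and 19.1 FPKM in the same order. All 3 differences passed in every alternative in which they were refitted, and that of EGR1 was 0.70 on the log2(FPKM + 1) scale, where low values are compressed. The response to gemcitabine of these genes was known when they were chosen, so the differences are not independent evidence.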

How the results depend on the processing

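For 75 pairs of a gene and a comparison given above, 1214 alternative values were computed, of which 1062 kept their direction and their side of the threshold, 88 kept the direction and lost the threshold, 51 gained it and 13 changed sign. The sign changed for EGR1 with gemcitabine added to genistein in Mia-PaCa-2 with the GC correction (-0.0072 without and -0.0084 with the block), for EGR1 with genistein in PANC-1 without genistein replicate 2 (-0.174, against 0.67 without replicate 1), for NR4A1 with genistein in PANC-1 with the GC correction (0.133, and 0.139 with the block), at log2(FPKM + 1) (0.285), at log2(FPKM + 0.1) (0.573) and without genistein replicate 2 (0.035, against -0.407 without replicate 1), for IER2 with gemcitabine in Mia-PaCa-2 with the GC correction (-0.0042, and -0.0035 with the block), and for SRF between the untreated lines with the GC correction (-0.254, and -0.251 with the block) and without PANC-1 control replicate 1 (-0.161, against 0.35 without replicate 2). The causes were not tested.

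Counts of members called moved as follows. By the adjusted p alone there were 9 for gemcitabine (39.0% of all genes) and 6 for gemcitabine added to genistein (41.2%) in Mia-PaCa-2, and 4 (8.504%) and 5 (8.84%) in PANC-1. For genistein added to gemcitabine in Mia-PaCa-2 there were 1 at log2(FPKM + 1) (0.648% of all genes) and 0 at log2(FPKM + 0.1), and in PANC-1 there was 1 with the GC correction, with or without the block (4.39% and 7.20%). The interaction in Mia-PaCa-2 had 2 with DESeq2 (0.286%), 2 with the GC correction (0.609%), 2 with the GC correction and the block (0.178%), 0 with the block alone and 0 on either FPKM scale. The gemcitabine response of the lines differed for 5 with the GC correction, with or without the block (24.8% and 26.4%), and the genistein response for 2 with edgeR (0.106%), DESeq2 (1.04%) and the GC correction, with or without the block (1.68% and 2.22%). Leaving out 1 replicate gave 4 to 4 (gemcitabine), 2 to 4 (genistein), 1 to 2 (genistein added), 3 to 4 (gemcitabine added) and 0 to 2 (interaction) in Mia-PaCa-2, 2 to 2, 0 to 0, 0 to 0, 1 to 4 and 0 to 0 in PANC-1, 3 to 4 between untreated lines, and 3 to 3 and 0 to 2 for the differences in the gemcitabine and genistein response.

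Deviations of replicate I from II correlated with mixed signs between groups (-0.299 to 0.155 in Mia-PaCa-2 and -0.569 to 0.331 in PANC-1). The largest were in PANC-1, between control and both drugs (-0.569), gemcitabine and both (-0.353) and control and gemcitabine (0.331). Since the signs did not agree, the numbers were not taken to pair the samples. With the replicate block, the interaction count in Mia-PaCa-2 went from 1 to 0 (EGR1, adjusted p = 0.0616), that of gemcitabine added to genistein in PANC-1 from 3 to 2 (IER2, adjusted p = 0.0938, limma-voom), and the other counts of members did not change. Over all genes, alternatives other than leaving out a replicate gave 229 to 1710 calls for genistein in Mia-PaCa-2 (1335 in the main test), 1 to 1547 for genistein added to gemcitabine (945), 0 to 1222 for genistein in PANC-1 (10) and 499 to 3484 for gemcitabine added to genistein in PANC-1 (1383). Leaving out 1 replicate gave 176 to 1117, 137 to 1890, 0 to 1 and 27 to 1186 in the same order. With library size alone in place of TMM, the share of calls that were higher for gemcitabine added to genistein went from 52.6% to 67.3% in Mia-PaCa-2 and from 47.4% to 78.3% in PANC-1. Depth limits EGR2, EGR3, NR4A2 and NR4A3, which had few reads in most libraries.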
